A study of Mus musculus with 8 samples.

Results

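Liver neutrophils were picked out of single-cell RNA libraries, chosen by the measured UMIs of their own marker genes. A barcode was called a neutrophil when at least 3 of 7 genes were detected in it (S100a8, S100a9, Retnlg, Csf3r, Cxcr2, Il1r2 and Mmp8), with Csf3r, Retnlg or Cxcr2 among them. It also had to hold 0 unique molecular identifiers (UMIs) of Cd79a, Trac, Clec4f and Kdr, which mark B cells, T cells, Kupffer cells and endothelial cells. This gate found 171 neutrophils among 48465 kept cells, or 0.353%, of 127557 barcodes in all. A kept cell had between 200 and 2500 genes detected, with mitochondrial genes giving no more than 30% of its UMIs. Each of the 8 libraries was made from 1 liver of a C57BL/6J mouse (female, 9 weeks old), of no other stated genotype and without tumors. In the BG group (replicates 5 to 8), 4 mice received 1.2 mg of the soluble yeast β-glucan odetiglucan (Imprime PGG) intravenously on day 0, and in the control group (replicates 1 to 4), 4 mice were not treated. All livers were perfused and taken on day 2, dead cells were removed, and CD45+ cells were enriched, after which buffy-coat cells of the remaining fraction were added back. The question was how neutrophils of the liver differed between BG and control mice, with 1 library per mouse as the replicate.

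Neutrophils are short-lived phagocytes made in the bone marrow and carried by the blood into tissues, the liver sinusoids among them. They form their granule proteins in waves while they mature, so that transcripts of secondary granules (Ngp, Camp, Ltf) belong to cells still in or just out of the marrow, whereas mature cells carry Csf3r, Cxcr2, Il1b and Cxcl2. They respond to type I interferon, which switches on a broad set of antiviral genes. They can also bind β-glucan, through Dectin-1 (encoded by Clec7a) and through complement receptor 3 (Itgam with Itgb2), upstream of the kinase Syk and the adaptor Card9.

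The cells carried the RNA of neutrophils, which is a description, since the gate chose them for it. S100a9 and S100a8, the subunits of calprotectin, stood at 56909 ± 13809 and 42739 ± 10257 counts per 1000000 UMIs, CPM ( mean ± SD over 8 libraries). In all other kept cells they averaged 63.5 and 51.2 CPM, and in gated monocytes 1.97 and 1.66 CPM. Retnlg averaged 4787 CPM, Csf3r, the G-CSF receptor, 1317 CPM and Cxcr2, the receptor for CXC chemokines, 831 CPM. Markers outside the gate were also high. The gelatinase Mmp9 averaged 1212 CPM against 44.1 CPM in all other kept cells, the activating receptor Trem1 330 against 0.880 CPM, the histidine decarboxylase Hdc 1021 against 17.0 CPM, and G0s2 978 against 6.88 CPM. Ly6g, the antigen most used to sort mouse neutrophils, was found in 16 of the 171 cells only, at 172 CPM, and Cxcr1 had 3 UMIs in all. Among the most abundant transcripts outside the gate were Cxcl2 (9108 CPM), a chemokine that draws neutrophils, the ferritin gene Fth1 (7223 CPM), Tyrobp (4730 CPM), an adaptor of activating receptors, and lysozyme, Lyz2 (4213 CPM).

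Cells near the edge of the gate were set beside those inside it. The 14 cells with 3 gate genes had a median of 57 UMIs of S100a8 and S100a9, and the 157 cells with 4 or more had 81. The 26 kept cells with 2 gate genes had a median of 0. A further 119 kept cells met the marker part of the gate but held an excluded gene, at a median of 3698 UMIs per cell against 1437 in neutrophils. Of kept cells with Trac, 0.234% of 17547 met the marker part, and of those with Cd79a, 0.256% of 10160. No neutrophil barcode was a neutrophil barcode in another library, although 307 of 48157 distinct barcodes of kept cells occurred in more than 1 library.

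RNA of other cells was present and moved in part with the groups. The 17 monocyte and macrophage markers, all of them with UMIs, summed to 771 to 1454 CPM in control and 1598 to 2821 CPM in BG libraries. Of 12 dendritic cell markers 9 had UMIs, with Clec9a, Cd209a and Siglech at 0, and the list summed to 178 to 937 CPM in control and 762 to 2431 CPM in BG. Bst2, on the dendritic list, and Ms4a4c, on the monocyte list, are also on the interferon list used below. Nr4a1, on the monocyte list too, averaged 363 CPM in neutrophils and 201 CPM in gated monocytes. Its part of the sum need not come from other cells. The 15 T and NK cell markers, of which Trac (by the gate), Cd8a and Cd4 were at 0, went the other way, with 168 to 2314 CPM in control and 38.0 to 657 CPM in BG. Ccl5, a chemokine of T and NK cells, had 2, 35, 24 and 39 UMIs in the control libraries and 1, 1, 0 and 8 in the BG libraries. Of 11 B cell markers 7 were at 0, and the list stood at 89.0 to 198 CPM in control and 131 to 228 CPM in BG. Hepatocyte markers (12 of 14 with UMIs, Mup20 and Cps1 at 0) stood at 264 to 679 CPM in control and 263 to 866 CPM in BG. Kupffer cell markers (5 of 9 with UMIs, with Clec4f, Timd4, Folr2 and C6 at 0) stood at 198 to 297 CPM in control and 221 to 339 CPM in BG. Endothelial markers (10 of 11 with UMIs, Kdr at 0 by the gate) stood at 237 to 363 CPM in control and 131 to 1044 CPM in BG. Markers of basophils and eosinophils stayed at 38.0 CPM or less in every library, with Mcpt8, Epx and Prg2 at 0. Erythrocyte and platelet markers (9 of 9 with UMIs) were at 33.0 to 43225 CPM in control and 76.1 to 38267 CPM in BG, and 1 cell each in control 1 and BG 7 had 10 or more UMIs of Hbb-bs. The part of other cells' RNA in the results below was not tested, except where a value without the cells in question is given. No doublet caller was run. Cells with an excluded gene or over 2500 genes were left out.

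The number of neutrophils did not separate the groups. The control libraries held 34, 22, 21 and 16 neutrophils, which were 0.498%, 0.314%, 0.270% and 0.257% of kept cells, and the BG libraries held 20, 15, 23 and 20, which were 0.462%, 0.260%, 0.479% and 0.350%. The groups overlapped. The mean shares were 0.335% ± 0.111 in control and 0.388% ± 0.103 in BG (SD, n = 4 each, two-sided exact permutation test, p = 0.514, where the smallest p that 4 against 4 libraries allow is 0.0286). The difference of 0.0530 percentage points was 0.107 without control 1, 0.0957 without BG 6, 0.0224 without BG 7 and 0.169 with no mitochondrial limit. A single library's share carried a wide 95% Wilson interval, from 0.158% to 0.417% for control 4, which covers counting error only. Such a share is relative to the other cells that the enrichment recovered. A large part of the neutrophils fell to the mitochondrial limit: 387 barcodes passed the gate before any limit, and 214 of them, 73 in BG 5, had over 30% mitochondrial UMIs.

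Depth per neutrophil overlapped between the groups. Median UMIs per neutrophil were 1982.5, 1186.5, 1200 and 1340.5 in control libraries and 1067.5, 1606, 1823 and 1500 in BG libraries, with a mean difference of 71.8 UMIs (exact permutation test, p = 0.800, n = 4 each). The median mitochondrial percentage averaged 19.4% ± 4.11 in control and 18.6% ± 3.27 in BG (SD, exact permutation test, p = 0.714, n = 4 each). Neutrophils were shallower than the other cells, whose libraries had a median of 2321.5 to 3589.5 UMIs per kept cell. Summed over its neutrophils, a library gave 26288 to 89207 UMIs, so that 423 genes had enough UMIs to be tested.

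Interferon genes were higher in the neutrophils of BG mice. Of the 423 genes tested, 12 (2.84%) were higher in BG and 0 (0%) were lower, at an adjusted p under 0.05 and a log2 fold change beyond 0.5 (edgeR quasi-likelihood test with Benjamini-Hochberg adjustment on UMIs summed per library). At an unadjusted p under 0.05 there were 34 genes (8.04%), 10 of them (2.36%) lower in BG, and DESeq2 also called 0 lower. The 12 were Wfdc17, Slfn4, Ifitm3, Rsad2, Ly6e, Ifi204, Ifi27l2a, Plac8, Isg15, Slfn5, Vim and Oasl2. In each of them the lowest BG library was above the highest control library, as in 16 of all tested genes (3.78%), while 12 (2.84%) had every BG library below every control library. The median log2 fold change of all tested genes was 0.01. With 78 to 93 cells a group, small changes were out of reach.

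**Figure D1:**
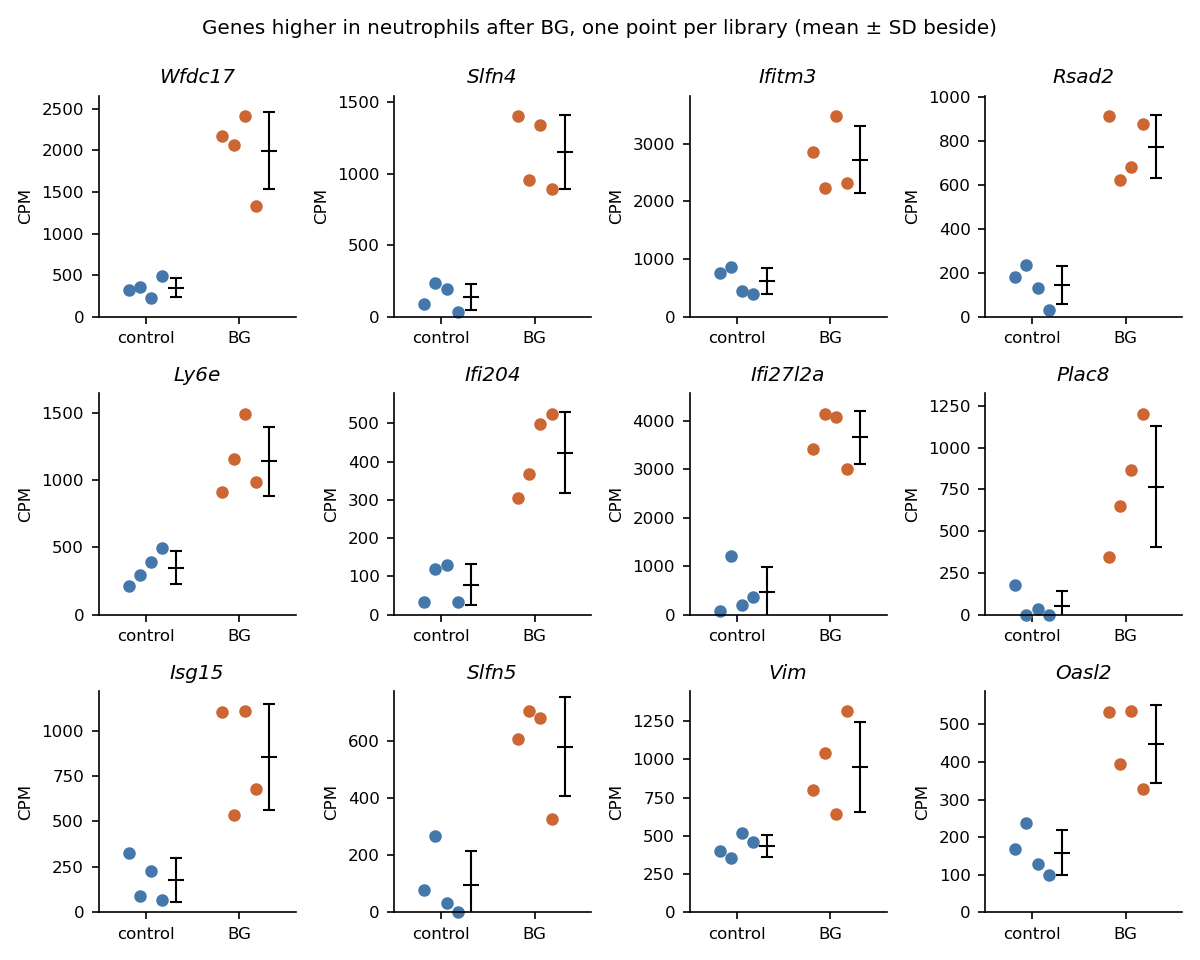
CPM of the 12 genes called higher in BG, with 1 point per library (4 control, 4 BG) and the mean ± SD of each group beside its points; each vertical axis starts at 0. In every panel the BG points lie above all control points, with control libraries from 226 to 495 CPM and BG libraries from 1336 to 2415 CPM for Wfdc17.

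Schlafen genes were among those that rose. Slfn4, a member of the Schlafen family that myeloid cells of the mouse express, stood at 89.7, 237, 194 and 33.0 CPM in control libraries and at 1407, 959, 1346 and 898 CPM in BG libraries. No BG library came near the control range, and the log2 fold change was 3.18 ± 0.40 (SE, edgeR, adjusted p = 0.00103). After each cell was thinned to 500 UMIs, 10.8% of control and 47.4% of BG neutrophils held a Slfn4 UMI, against 0% and 0.113% of cells with Trac. Slfn5, another member, lay between 0 and 267 CPM in control libraries and between 329 and 705 CPM in BG libraries (log2 2.65 ± 0.58, SE, adjusted p = 0.0265). Slfn2 (log2 0.63, adjusted p = 0.433) and Slfn1 (log2 0.67, adjusted p = 0.580) did not pass the test.

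Antiviral effectors were among the 12. Rsad2, which encodes viperin, an enzyme that makes a chain-terminating nucleotide, stood at 179, 237, 129 and 33.0 CPM in control and at 913, 621, 682 and 876 CPM in BG (log2 2.36 ± 0.38, SE, edgeR, adjusted p = 0.00356). Isg15, a ubiquitin-like protein that is attached to other proteins, stood at 325, 89.0, 226 and 65.9 CPM in control and at 1103, 536, 1106 and 679 CPM in BG (log2 2.14 ± 0.45, SE, adjusted p = 0.0242). The groups did not overlap for either gene, and control 1 had the highest control level of Isg15. Oasl2, a relative of the oligoadenylate synthetases, went from 158 ± 59.8 to 448 ± 103 CPM (mean ± SD, log2 1.51, adjusted p = 0.0331). Ifi204, a p200 family protein that takes part in sensing DNA, went from 78.6 ± 52.5 to 424 ± 105 CPM (log2 2.68, adjusted p = 0.00356).

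Membrane proteins of the interferon response formed another group. Ifitm3, which hinders the entry of viruses at endosomes, stood at 762, 860, 452 and 396 CPM in control and at 2853, 2229, 3484 and 2322 CPM in BG (log2 2.17 ± 0.31, SE, edgeR, adjusted p = 0.00229). Ly6e, a GPI-anchored surface protein, went from 348 ± 121 to 1137 ± 258 CPM (mean ± SD, log2 1.87, adjusted p = 0.00356). Ifi27l2a, a small interferon-induced protein, had the highest BG level of the 12, at 78.5, 1216, 194 and 363 CPM in control and 3424, 4147, 4074 and 3000 CPM in BG (log2 3.16 ± 0.60, SE, adjusted p = 0.0126). Control 2 stood above the other control libraries here and still below every BG library. Of the same family, Ifitm1 had a log2 fold change of 1.36 with an adjusted p of 0.212, and Ifitm2 one of 0.13 with an adjusted p of 0.982. Ifitm1 was called higher by DESeq2, without a filter on low counts and with no mitochondrial limit.

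The remaining 3 genes were not on the interferon list. Wfdc17, a small secreted protein of the WAP family made by mouse phagocytes, stood at 325, 356, 226 and 495 CPM in control and at 2168, 2060, 2415 and 1336 CPM in BG (log2 2.58 ± 0.31, SE, edgeR, adjusted p = 0.00103). Plac8 stood at 179, 0, 32.3 and 0 CPM in control and at 342, 649, 866 and 1205 CPM in BG, and control 1 held 16 of the 17 control UMIs (log2 3.27 ± 0.66, SE, adjusted p = 0.0187). Vim, the intermediate filament vimentin, went from 435 ± 69.9 to 950 ± 293 CPM (mean ± SD, log2 1.20, adjusted p = 0.0265). Leaving out BG 7 took Plac8, Isg15, Slfn5 and Oasl2 below the threshold and left 8 called genes. Leaving out the 13 granule-rich cells described below took the call of Vim away (adjusted p = 0.145).

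The called genes lay on several chromosomes (GRCm38, GENCODE annotation). Slfn5 and Slfn4 were on chromosome 11, at 82951349 to 82964840 and 83175186 to 83190216, with Wfdc17 on the same chromosome at 83703991 to 83706268. Ifitm3 was on chromosome 7 at 141009586 to 141010770, Rsad2 on chromosome 12 at 26442746 to 26456452, and Isg15 on chromosome 4 at 156199424 to 156200818. All 12 were annotated as protein coding.

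Promoter windows of these genes were searched for the core of the interferon-stimulated response element, a sequence found near many interferon-induced genes. Of the 12 genes, 9 had a RefSeq window from 250 bases before to 50 after the start site, while Ly6e, Ifi204 and Ifi27l2a are named only. The motif was GAAANNGAAA on either strand, which reads TTTCNNTTTC on the opposite strand, with N any base and overlapping matches allowed. It was in the windows of 4 of these 9 genes, against 3.44% of 32851 windows in all and 24 of 321 tested genes with a window (7.48%). The 4 windows that hold it are shown 5′ to 3′ along the gene's strand (RefSeq, GRCm38.p6), with the matches in capitals.
Isg15 (chr4:156200769-156201068, minus strand): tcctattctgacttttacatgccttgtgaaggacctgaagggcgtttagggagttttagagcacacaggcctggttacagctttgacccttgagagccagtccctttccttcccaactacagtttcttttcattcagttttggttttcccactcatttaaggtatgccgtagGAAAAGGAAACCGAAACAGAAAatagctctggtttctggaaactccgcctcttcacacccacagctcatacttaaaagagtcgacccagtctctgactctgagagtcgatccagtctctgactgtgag
Rsad2 (chr12:26456403-26456702, minus strand): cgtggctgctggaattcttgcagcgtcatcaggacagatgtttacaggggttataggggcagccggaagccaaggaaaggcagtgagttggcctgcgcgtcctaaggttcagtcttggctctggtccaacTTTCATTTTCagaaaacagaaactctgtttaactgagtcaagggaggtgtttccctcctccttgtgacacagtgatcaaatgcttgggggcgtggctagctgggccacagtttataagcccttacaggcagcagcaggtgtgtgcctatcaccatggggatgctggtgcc
Slfn5 (chr11:82951852-82952151, plus strand): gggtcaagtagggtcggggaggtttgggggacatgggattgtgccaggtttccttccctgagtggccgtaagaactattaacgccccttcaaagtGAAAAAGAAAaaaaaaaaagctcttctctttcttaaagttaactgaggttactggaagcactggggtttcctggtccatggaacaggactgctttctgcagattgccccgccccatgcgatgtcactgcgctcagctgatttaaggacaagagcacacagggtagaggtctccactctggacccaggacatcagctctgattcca
Ifitm3 (chr7:141010695-141010994, minus strand): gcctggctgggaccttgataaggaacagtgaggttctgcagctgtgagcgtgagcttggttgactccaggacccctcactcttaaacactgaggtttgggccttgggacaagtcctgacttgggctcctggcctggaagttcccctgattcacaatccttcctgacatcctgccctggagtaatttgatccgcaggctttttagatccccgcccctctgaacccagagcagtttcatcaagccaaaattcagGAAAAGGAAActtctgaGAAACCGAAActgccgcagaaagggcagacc
In Isg15, 3 overlapping matches began 78, 72 and 66 bases before the start site and formed 1 run. Rsad2 had 1 match beginning 120 bases before the start, on the opposite strand, and Slfn5 had 1 beginning 155 bases before its RefSeq start. The RefSeq window of Slfn5 lies inside the GENCODE span of the gene given above, so by that annotation its match is within the gene. In Ifitm3, 2 matches began at bases 3 and 20 of the transcript. No match to these letters was in the windows of Wfdc17, Slfn4, Plac8, Vim and Oasl2. A match describes the letters of a window and is not a measured binding site.

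The type I interferon list as a whole was higher in BG neutrophils. Of its 70 genes 68 were listed in the files and 14 were tested, of which 9 rose, 0 fell and 5 did not pass. The median log2 fold change of the 14 was 2.01 (all tested genes: 0.01), but a gene could pass the filter through its level in BG alone, so this median is a description. Over all 68 listed members, the summed level was 7802, 10857, 6850 and 6857 CPM in control libraries and 26704, 22288, 27741 and 20215 CPM in BG libraries. The lowest BG mouse was well above the highest control mouse. The 54 members that were not tested showed the same: 1813 to 3139 CPM summed in control and 6330 to 8258 CPM in BG. Of the 52 with UMIs, 48 had a higher pooled CPM in BG and 4 a lower one. The share of all untested genes with a higher pooled CPM in BG is not given here, so this count is a description. Pooling also weights the libraries by their UMIs, with 89207 in control 1 and 33712, 30950 and 30332 in control 2, 3 and 4. Ifit3, an antiviral RNA-binding protein, had 2 UMIs in all control and 71 in all BG neutrophils, Ifit1 had 2 and 49, and Irf7, a transcription factor that amplifies interferon output, 10 and 64. Trim30b had 44 and 38 UMIs. Mx1 and Mx2 were not analysed here. None of the 28 genes of the interferon gamma list reached the tested set. They summed to 3542, 1276, 872 and 824 CPM in control libraries and to 1255, 903, 1382 and 2825 CPM in BG libraries. The groups overlapped, and control 1 alone set the upper end of the control range.

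Most neutrophils of both groups carried interferon-list RNA, at a higher level in BG mice. With each cell thinned to 500 UMIs, 3, 1, 1 and 0 neutrophils of the control libraries and 0 in each BG library had no interferon-list UMI. The mean number of interferon-list UMIs per neutrophil was 5.29, 6.55, 3.38 and 4.25 in control libraries and 13.85, 14, 17.5 and 14 in BG libraries. At least 5 such UMIs were found in 28.6% to 68.2% of the neutrophils of a control mouse and in 80% to 100% of those of a BG mouse. Gated monocytes, the other blood-derived phagocytes compared here, had library means between 4.91 and 6.49 in control mice and between 9.93 and 11.6 in BG mice. Cells with Trac had 2.58 to 2.91 in control and 4.40 to 5.19 in BG. The summed list went from a mean of 11768 to 20220 CPM in monocytes and from 6013 to 10569 CPM in all other kept cells. Neutrophils had a higher mean than the monocytes of the same library in 4 of 4 BG mice and in 1 of 4 control mice.

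**Figure D2:**
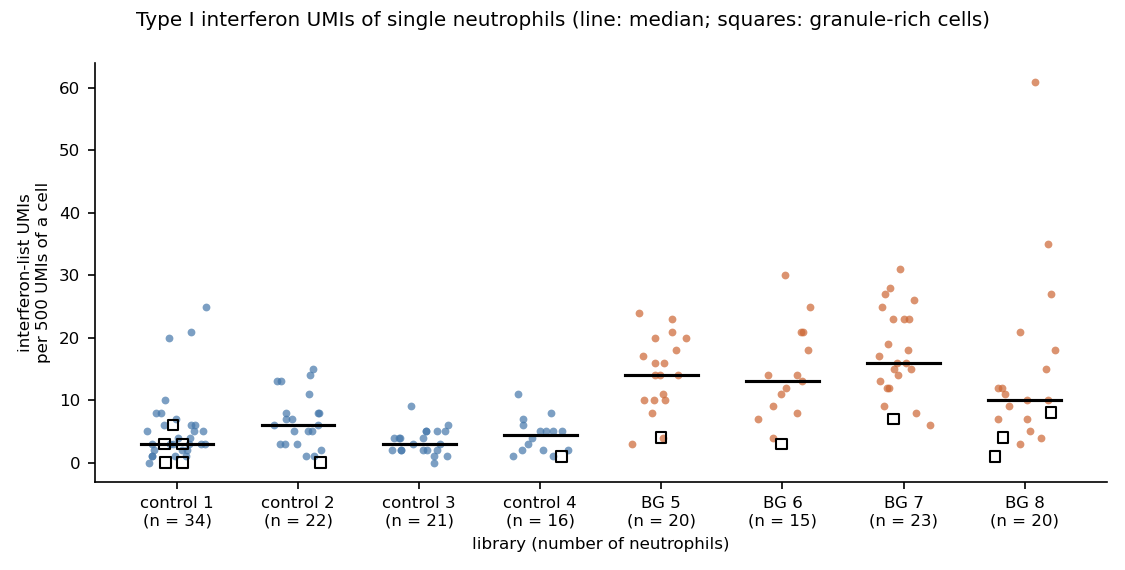
Type I interferon list UMIs in each of the 171 neutrophils after thinning to 500 UMIs, by library (horizontal axis, with the number of neutrophils); lines are medians and open squares granule-rich cells. The library medians lie between 3 and 6 in control and between 10 and 16 in BG, and most BG cells exceed the control medians.

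The interferon values were also taken without the cells that carried monocyte genes. Csf1r, Ccr2 and F13a1 together had 8, 5, 2 and 1 UMIs in the control libraries and 2, 18, 12 and 8 in the BG libraries. The 18 of BG 6 lay in 1 cell. Such UMIs were found in 25 of the 171 cells, 15 in control and 10 in BG. Without those cells, the summed interferon list was 6738 to 9407 CPM in control and 18595 to 27041 CPM in BG, and 9 of the 12 genes were still called, with a log2 fold change of 3.57 for Slfn4 and 2.79 for Wfdc17. The other 3, Plac8, Ifi204 and Oasl2, no longer had enough UMIs to be tested. Plac8 is itself abundant in monocytes, at 2041 CPM in control and 3941 CPM in BG. In neutrophils free of the monocyte genes it had 16, 0, 0 and 0 UMIs in control and 2, 3, 8 and 23 in BG. Ccr2 had 0 UMIs in every control library and 0, 9, 5 and 6 in the BG libraries.

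Most of the 12 genes also rose in other cells, though by different amounts. In monocytes, where 54 of 5007 genes (1.08%) were called higher and 6 (0.12%) lower, 9 of the 12 were called higher. In all other kept cells, where 143 of 13969 (1.02%) were higher and 51 (0.365%) lower, 8 were. Wfdc17, with a log2 fold change of 0.34 in monocytes and 0.49 in all other kept cells, and Vim, with −0.18 and −0.01, were called in neither. Slfn4 went from 4.50 to 56.9 CPM in monocytes (log2 3.75 ± 0.52, SE, edgeR, adjusted p = 0.000297) and from 0.416 to 5.21 CPM in all other kept cells. Its fold change was thus similar in the other cells, although its control levels there were near 0 (4.50 ± 4.46 CPM in monocytes, mean ± SD). Its BG level in neutrophils, 1153 ± 261 CPM (mean ± SD), was far above theirs. Both fits share the 8 mice.

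**Figure D3:**
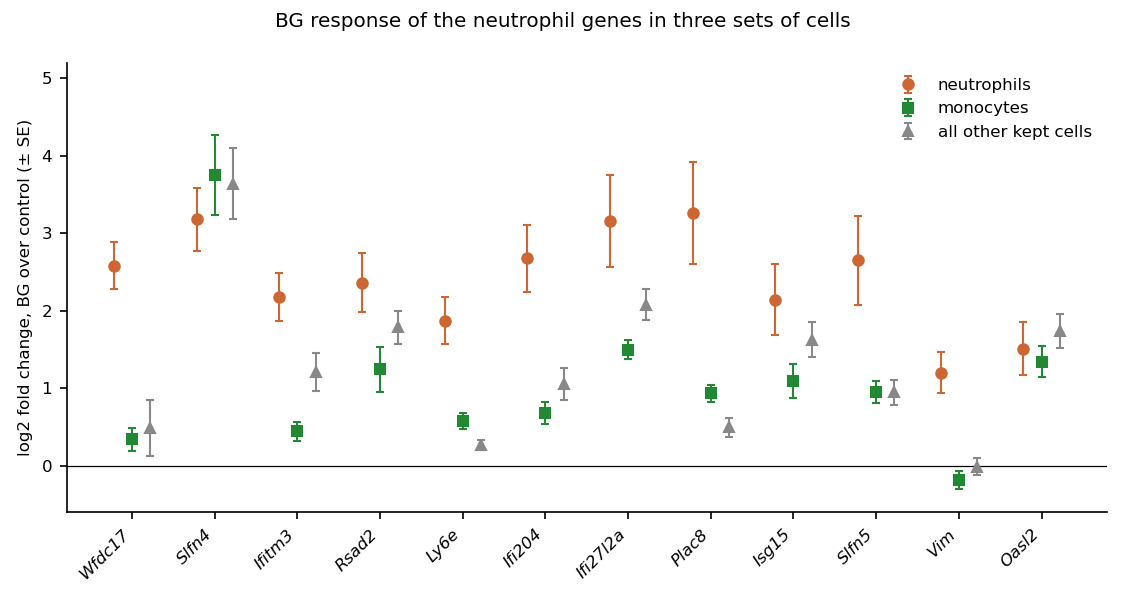
log2 fold change (BG over control, ± SE) of the 12 genes called in neutrophils, in neutrophils, gated monocytes and all other kept cells. Neutrophil values lie above those of monocytes for all but Slfn4, and those of Oasl2 are nearly equal (1.51 in neutrophils, 1.34 in monocytes). The 12 genes were chosen by their response in neutrophils, which favors higher values there, so this order is a description.

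The difference itself was tested in 1 model over both cell types, with the library as a block. Of 3449 genes, 24 (0.696%) had a larger log2 response in neutrophils than in monocytes and 3 (0.087%) a smaller one. Among the 12 called genes, 7 had a larger response in neutrophils: Wfdc17 by 2.22 ± 0.35 (log2, SE, edgeR, adjusted p = 4.36e-05), Ifitm3 by 1.73 ± 0.29 (adjusted p = 0.000128), Ifi27l2a by 1.94 ± 0.36 (adjusted p = 0.00042), and also Plac8, Vim, Ifi204 and Ly6e, by 1.27 to 2.38. For Slfn4 (−0.45 ± 0.57, adjusted p = 0.999), Oasl2 (0.09 ± 0.49), Isg15 (0.95 ± 0.44), Rsad2 (1.13 ± 0.51) and Slfn5 (1.66 ± 0.49) the difference did not pass. The 12 were chosen by their response in neutrophils, which favors a larger response there, so the count of 7 is a description. Many other calls came from genes with few neutrophil UMIs, which entered through their level in monocytes. Fabp5, a fatty acid binding protein, had 9 UMIs in control and 50 in BG neutrophils. Ctss, the lysosomal protease cathepsin S, had 7 and 53, and in monocytes it stood at 1129 and 1374 CPM. Apoe differed because it fell in monocytes, from 4156 to 1713 CPM (log2 −1.29, adjusted p = 0.00038), while in neutrophils it stood at 729 and 981 CPM (log2 0.59, adjusted p = 0.982). Ccr2 is a gene of the monocyte gate, so its call is a description. Against all other kept cells, where 10 of 12242 genes (0.0817%) had a larger response in neutrophils and 6 (0.049%) a smaller one, Wfdc17 and Plac8 were the only ones of the 12 to pass. Without the cells that held Csf1r, Ccr2 or F13a1, the BG mean of Plac8 was 264 CPM in place of 766 CPM. Without control 4 the neutrophil and monocyte difference was called for 9 genes in place of 27.

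None of the tested inflammatory genes of neutrophils passed the main test. Of 21 cytokine and chemokine genes 9 were tested, 0 were called either way, and their median log2 fold change was 0.11. Cxcl2 came closest to the called genes among the abundant ones, at 5952, 7297, 9144 and 7616 CPM in control and 13162, 8718, 11686 and 9286 CPM in BG, with overlapping groups (log2 0.61, edgeR, adjusted p = 0.316). Il1b, the precursor of interleukin 1β, was at 3751 ± 928 CPM in control and 3342 ± 830 CPM in BG (mean ± SD, log2 −0.07, adjusted p = 0.982). Ccl4 had a log2 fold change of 1.75 and an adjusted p of 0.580, with 0 to 1205 CPM among the BG libraries. It was called higher without BG 6, the library at 0, and without a filter on low counts. Summed, the list was at 12992 to 20743 CPM in control and 15940 to 27617 CPM in BG. Of 18 immediate early genes tested 0 were called, and Jund, an AP-1 subunit, had a lower level in every BG library (log2 −0.60, adjusted p = 0.316). It was the gene nearest to a call in that direction, followed by Zfp36l2 (log2 −0.75, adjusted p = 0.358), an RNA-binding protein that shortens the life of transcripts, and H3f3b (log2 −0.75, adjusted p = 0.429), a histone gene. Tax1bp1, Neat1, Igf1r, Pilra, Kdm7a, Pim1 and Gcnt2 came next, at adjusted p of 0.433 to 0.580.

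None of the tested genes by which neutrophils sense and kill passed the test. Itgam, the α chain of complement receptor 3, stood at 472 ± 60.1 CPM in control and 467 ± 68.4 CPM in BG (mean ± SD, log2 0.01 ± 0.26, SE, edgeR, adjusted p = 0.995). Its partner Itgb2 stood at 308 ± 13.1 and 386 ± 116 CPM (log2 0.38 ± 0.29), and Syk at 302 ± 89.0 and 300 ± 46.3 CPM (log2 0.06 ± 0.30). Changes of several times these standard errors could be missed at this depth. Card9 had 10 UMIs in all 8 libraries, and Clec7a was not analysed here. Of 9 tested genes in the list of β-glucan recognition and Syk signaling, 7 of NADPH oxidase and 11 of chemoattractant and homing receptors, 0 were called in either direction. Their summed levels overlapped between groups, for example 10605 to 11895 CPM in control and 10072 to 12439 CPM in BG for β-glucan recognition. Within that list, every BG library was above every control library for Fcer1g (log2 0.37, adjusted p = 0.866). The same held for 3.78% of all tested genes. The survival and death list, with 2 tested genes and 0 called, summed to 4114 to 5137 CPM in control and 3078 to 4096 CPM in BG, without overlap. Its member Mcl1 (log2 −0.18) had every BG library below every control library, as did 2.84% of all tested genes. The list of MHC class I presentation had 3 tested genes and 0 called. B2m, the light chain, had a log2 fold change of 0.75 with an adjusted p of 0.307, and its libraries did not overlap. None of the 4 tested heat shock genes, 4 glycolysis genes, 6 transcription factors and 3 NF-kB genes was called, the largest fold change among them being that of Hspa8 (log2 1.08, adjusted p = 0.337). The 7 genes of the gate itself had overlapping libraries in both groups.

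**Figure D4:**
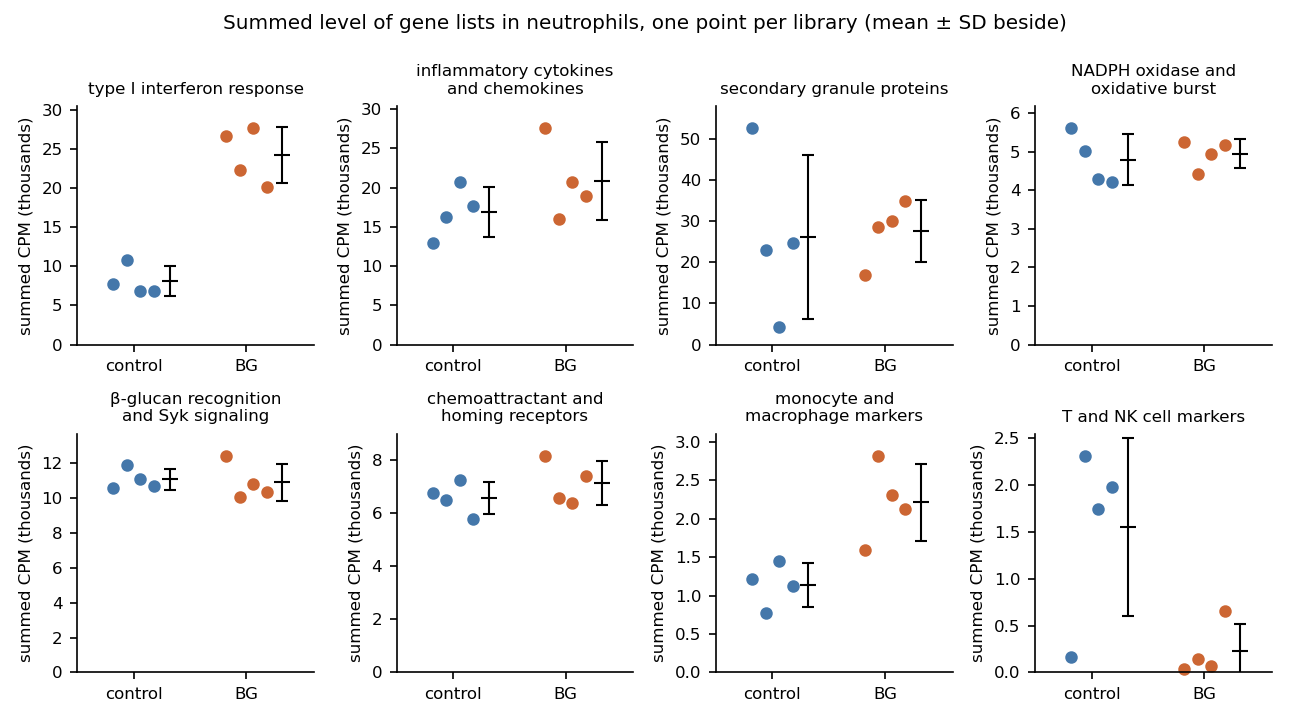
Summed level (CPM divided by 1000) of all listed members of 8 gene lists in neutrophils, with 1 point per library and the mean ± SD beside it; each vertical axis starts at 0. The type I interferon list separates BG from control without overlap, as do the monocyte and macrophage markers at a level of at most 2821 CPM, and the other lists overlap.

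A small set of granule-rich cells stood apart within the neutrophils. In 13 of the 171 cells there were 138 to 1002 UMIs of Ngp, Camp and Ltf, which encode the secondary granule proteins neutrophilic granule protein, cathelicidin and lactoferrin. In each of the other 158 cells there were 0 or 1. The 13 cells held 6772 of the 6774 UMIs of these genes. They were 5, 1, 0 and 1 cells in the control libraries and 1, 1, 1 and 3 in the BG libraries, or 7 and 6 in all, so that the mean levels of these genes in a library followed the presence of a few cells. Ngp stood at 15100, 6140, 0 and 7055 CPM in control and at 3424, 4599, 7723 and 9680 CPM in BG. The set was noticed in these data, and its differences from the other cells are given as a description.

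The granule-rich cells differed in other transcripts. Their median was 6161 UMIs and 1546 genes, against 1362.5 UMIs and 573 genes in the other neutrophils, and their median mitochondrial share 6.80% against 19.1%. Of the 18 neutrophils with over 3 times the median UMIs, 11 were granule-rich. Ly6g stood at 732 CPM in them against 18.7 CPM in the other neutrophils, Cd177, a surface glycoprotein of neutrophils, at 1143 against 29.9 CPM, Chil3 at 7000 against 190 CPM, and Lcn2, the siderophore-binding lipocalin 2, at 16557 against 440 CPM. The opposite held for genes of mature cells. Il1b was found in 0 of the 13 cells, although 153 of the other 158 had it, at 4246 CPM. Cxcl2 stood at 475 against 11071 CPM, Csf3r at 77.1 against 1672 CPM and Cxcr2 at 154 against 1000 CPM. In 3 of the 13, and in 0 of the others, 10 or more UMIs of cell cycle genes were found. Elane had 2 UMIs and Mpo 0, both of them primary granule genes of early precursors. Csf1r, Ccr2 and F13a1 were at 0.

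**Figure D5:**
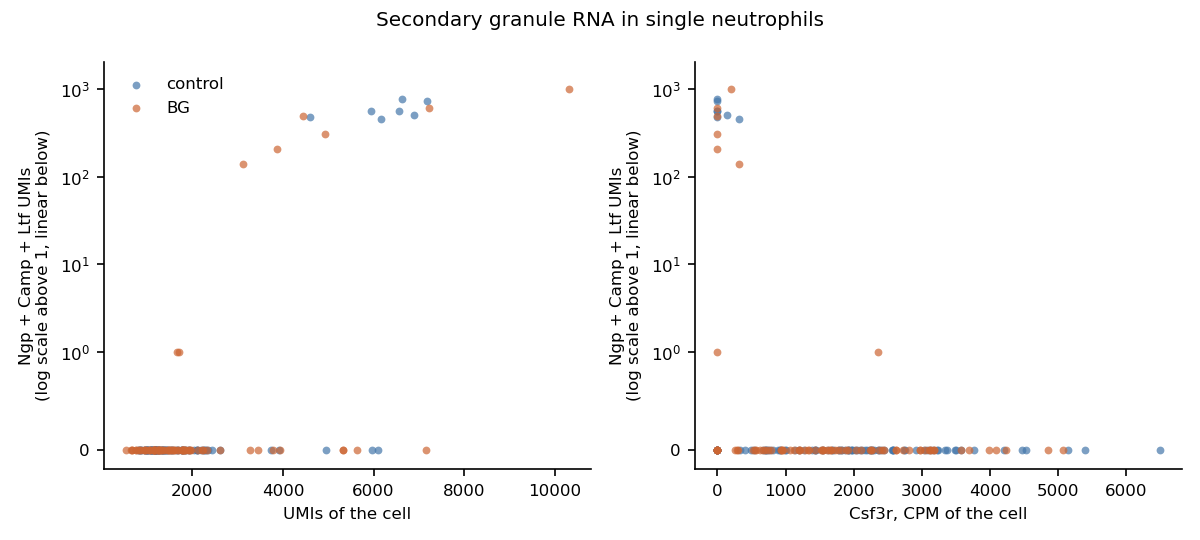
UMIs of Ngp, Camp and Ltf in each of the 171 neutrophils (vertical axis, log scale above 1) against the UMIs of the cell (left) and its Csf3r level in CPM (right), colored by group. The 13 granule-rich cells lie at 138 UMIs or more and at low Csf3r, and no cell lies between 1 and 138.

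The share of cells with secondary granule RNA did not separate the groups. After thinning to 500 UMIs, at least 2 UMIs of Ngp, Camp, Ltf and Lcn2 were found in 17.6%, 4.55%, 0% and 12.5% of control neutrophils and in 20%, 20%, 4.35% and 20% of BG neutrophils. In the 158 cells outside the granule-rich set, Ngp, Camp and Ltf had 2 UMIs in all before thinning and Lcn2 had 118. Such cells thus counted mainly through Lcn2. With so few cells in a library, 0 of 21 cells in control 3 allows a share of up to 14.3%. The mean shares were 8.67% ± 7.90 and 16.1% ± 7.83 (SD, n = 4 each, exact permutation test, p = 0.2). In gated monocytes the share was 0% in each of the 8 libraries. Of 11 tested secondary granule genes 0 were called, with a median log2 fold change of 0.17. Interferon-list UMIs per 500 ranged from 0 to 6 in the 7 granule-rich cells of control mice (median 1) and from 1 to 8 in the 6 of BG mice (median 4), against medians of 4 and 14 in the other neutrophils of the same groups.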

How the data were processed

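Single-cell 3′ RNA libraries of 8 mouse livers (1 per mouse; 4 control, 4 BG) were analysed. The authors deposited raw UMI counts per gene and barcode, made with Cell Ranger 6.1.2 against mm10 per the labels; replicates were not pooled. The members and lists were chosen with earlier results of these data known. Neutrophil UMI counts were summed per library (at least 10 cells), filtered (filterByExpr), scaled by TMM and tested with edgeR 4.0.16 (R 4.3.3) by the quasi-likelihood test with Benjamini-Hochberg adjustment over all tested genes. Printed CPM are plain counts per 1000000 UMIs of the neutrophils of a library. Shares and medians were compared by two-sided exact permutation tests (scipy 1.17.1). The difference from monocytes, which were gated by 7 marker genes (Ly6c2, Ccr2, Csf1r, F13a1, Chil3, Ms4a4c and Lyz2), was tested in 1 model of both cell types with the library as block. Named genes were the called genes (up to 15 per direction, or the next by p up to 10), gate and marker genes, up to 4 abundant members per list, up to 8 genes called for the difference, and Itgam, Itgb2, Syk and Card9. The steps were tested on simulated data of 368 genes. Of the 201 unchanged genes 0.995% were called, of the 85 changed by 1 on the log2 scale 57.6%, and of the 82 changed by 2 98.8%. Far more genes changed there than were called in the data (12 of 423). This eases the adjusted threshold, so the share found in the data can be lower. Intervals cover counting error only. A library gave 26288 to 89207 neutrophil UMIs. Tried alternatives were DESeq2 1.42.0, RLE factors, no filter, other gates and limits, and leaving out each library; having no mitochondrial limit and leaving out granule-rich cells were chosen after seeing the data. Values of 1 gene of the interferon list are not reported here.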

Additional observations from a re-analysis of the deposited data

Results flagged for a closer look

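The BG response of 10 named genes differed between neutrophils and monocytes by the test of the difference (edgeR, log2 units, neutrophils minus monocytes): 2.22 for Wfdc17, 1.73 for Ifitm3, 1.91 for Apoe, 3.37 for Fabp5, 1.94 for Ifi27l2a, 2.84 for Ctss, 2.38 for Plac8, 1.32 for Vim, 2.02 for Ifi204 and 1.27 for Ly6e. Of these, Apoe was not called in neutrophils alone, and Fabp5 and Ctss had too few UMIs to be tested there in the main setting. Ctss was called higher in BG neutrophils without any 1 of the control libraries, without BG 5, without a filter on low counts and with no mitochondrial limit. It was not called in the other settings, neutrophils free of monocyte genes among them. Its mean was 1251 CPM in monocytes against 179 CPM in neutrophils.

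In 4 sets of values, 1 library stood far from the other 3 of its group. BG 7 had the lowest share of neutrophils with secondary granule RNA (Ngp, Camp, Ltf and Lcn2), at 4.35% or 1 of 23 cells. Each of the others was at 20%, with 4 of 20, 3 of 15 and 4 of 20 cells. Without thinning, the share was 17.4% in BG 7 and 20%, 33.3% and 30% in BG 5, BG 6 and BG 8. S100a9 was highest in BG 7, at 74708 CPM, with the next BG library at 55044 CPM. Jund was highest in control 3, at 2132 CPM, with the next at 1550 CPM. Fcer1g was lowest in control 3, at 1099 CPM, with the next at 1602 CPM. Of the 100 sets of 4 values looked at, chance flags about 1 in 20.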

How the results depend on the processing

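No paired analysis was possible because the control and BG libraries share no replicate number. Without a filter on low counts, 10266 genes were tested and 36 changed, 33 higher and 3 lower. With no mitochondrial limit, chosen after seeing the data, 21 genes rose of 911 tested, all 12 of the main genes among them, and the median log2 fold change of the interferon list was 1.53 over 27 tested members. Leaving out 1 library at a time gave 8 to 16 changed genes, of which 8 to 16 were higher and 0 to 1 lower (Ccl5, without control 1). The smallest count came without BG 7. DESeq2 and RLE factors each called 12, at least 4 gate genes called 10, and neutrophils free of monocyte genes 9. Wfdc17, Slfn4, Ifitm3, Rsad2, Ly6e and Ifi27l2a kept the call in all 16 alternatives and Ifi204 in all 14 where it was tested. Vim lost it in 8 of 16, Oasl2 in 8 of 15, Slfn5 in 5 of 16, Isg15 in 4 of 16 and Plac8 in 2 of 14, and none changed sign. The difference of the response was called for 16 genes against all other kept cells and for 15 in neutrophils free of monocyte genes, and for 9 to 33 when 1 library was left out, with 9 without control 4. Of the values that passed no test, the difference in neutrophil share ran from 0.0224 to 0.107 percentage points without 1 library, the difference in median UMIs ran from -36.2 to 257 and that in mitochondrial percentage from -2.65 to 0.730 without 1 library, and the granule share difference was -6.99 percentage points when 1 UMI sufficed. The cause was not tested. With mitochondrial UMIs at most 10%, the gene tests could not be fitted. Depth limits the lists: at 15 to 34 neutrophils a library, 423 genes could be tested. A sum joins the number of cells and the RNA per cell, which are given separately above for each library.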

Other observations

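Cd74, the invariant chain of MHC class II, stood at 402 CPM in neutrophils, 5906 CPM in monocytes and 2049 CPM in all other kept cells, and its log2 fold change of 1.29 in neutrophils did not pass the test (edgeR, adjusted p = 0.693). Ly6c2, a surface antigen of monocytes, had a log2 fold change of 1.00 in neutrophils (adjusted p = 0.635).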
